A study of Mus musculus with 4 samples.

Results

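Growth factors and morphogens are secreted or membrane-bound proteins through which a cell tells its neighbours to divide, survive, migrate or differentiate. The 55 genes described here were chosen by name as ligands of the neurotrophin, glial cell line-derived neurotrophic factor (GDNF), fibroblast growth factor (FGF), bone morphogenetic protein (BMP), activin, Wnt, hedgehog, platelet-derived growth factor (PDGF), vascular endothelial growth factor (VEGF), insulin-like growth factor, epidermal growth factor (EGF), midkine and Notch families. Each matched 1 row of a count table with 42458 rows. The libraries come from the spinal cord of 4 wildtype C57BL6 mice, untreated apart from an adeno-associated virus, AAV2-CAG-tdT, which carries the red fluorescent protein tdTomato under the broadly active CAG promoter. It was injected into a brain ventricle, and 50 live tdTomato-positive cells per mouse were sorted from tissue around the central canal as a preparation enriched in CSF-cNs, cerebrospinal fluid-contacting neurons that reach into the fluid of the canal. All 4 libraries belong to 1 group with no untreated or other cell group, so the data give levels and their spread between mice, and no comparison between conditions. The labels used here give neither the age nor the sex of the mice.

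Values are CPM, the counts of a gene scaled to a fixed library size, and lists of 4 values follow the order of mice 1, 2, 3 and 4. Totals were 83007030 to 115479640 counts per library, and the limit that a count of 0 allows, 3 counts, was 0.0278 to 0.0348 CPM. Counts of molecules amplified by PCR are not independent, so limits and intervals cover counting error only. The libraries differed in their cell type markers, and the label of enriched CSF-cNs was borne out only in part. The 7 CSF-cN markers, such as the channel gene Pkd2l1, summed to 19.4, 2.59, 930 and 831 CPM, and all 7 had their 2 highest levels in mice 3 and 4. The tdTomato transgene had 5, 58, 13533 and 153379 counts. The 7 microglial markers summed to 48581, 52539, 31370 and 45369 CPM, with all 7 called above 10 CPM by the test described below. The 7 oligodendrocyte markers summed to 14666, 235, 18661 and 451 CPM. In such mixed bulk samples, fewer cells of a type and less RNA per cell cannot be told apart. The cell source of any ligand was not tested.

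The families work through different receptors. Neurotrophins, FGFs, PDGFs, VEGFs, neuregulins and EGF ligands bind receptor tyrosine kinases, BMPs and activins bind receptor serine/threonine kinases, and Wnts bind Frizzled receptors with LRP5 or LRP6. Hedgehog proteins bind Patched and thereby release Smoothened, and Notch ligands act only on a touching cell. In the developing spinal cord hedgehog protein from the floor plate and BMPs and Wnts from the roof plate pattern the neural tube.

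Only a small part of the ligands was found at a firm level. Of the 55 genes, 17 had no count in any library, 1 (Bmp7, a BMP) had a single count, and 37 had at least 10 counts and were tested. The test asked whether a level differed from 10 CPM (edgeR's quasi-likelihood test, Benjamini-Hochberg adjustment over 18522 genes, threshold 0.05). It called 4 of them, also the only members at 10 CPM or more in all 4 libraries, above 10 CPM: Tgfa, Pdgfb, Pdgfa and Vegfb. Of all tested genes 36.7% were called above, and 36.5% had at least 10 CPM in all 4 libraries. Of the 37 tested members, 9 reached 10 CPM in some library. The others stayed under it in every library, as did 41.4% of all tested genes. No member was called below 10 CPM, against 0.664% of all tested genes, and none had an unadjusted p under 0.05 below that level. This 0 says little about the members, because the test rarely calls any gene below: when 1 mouse was left out it called 0 of all tested genes below 10 CPM. Other tools called more on that side, among members and among all genes. The limma-voom fit called 26 members below, beside 6164 of all 18522 tested genes. DESeq2 called 4, with 18 of the 37 given no adjusted p. Of all tested genes it called 2041 below, with 2944 given no adjusted p. The median over the tested members of their mean level was 1.10 CPM, beside 9.52 CPM over all tested genes.

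**Figure D1:**
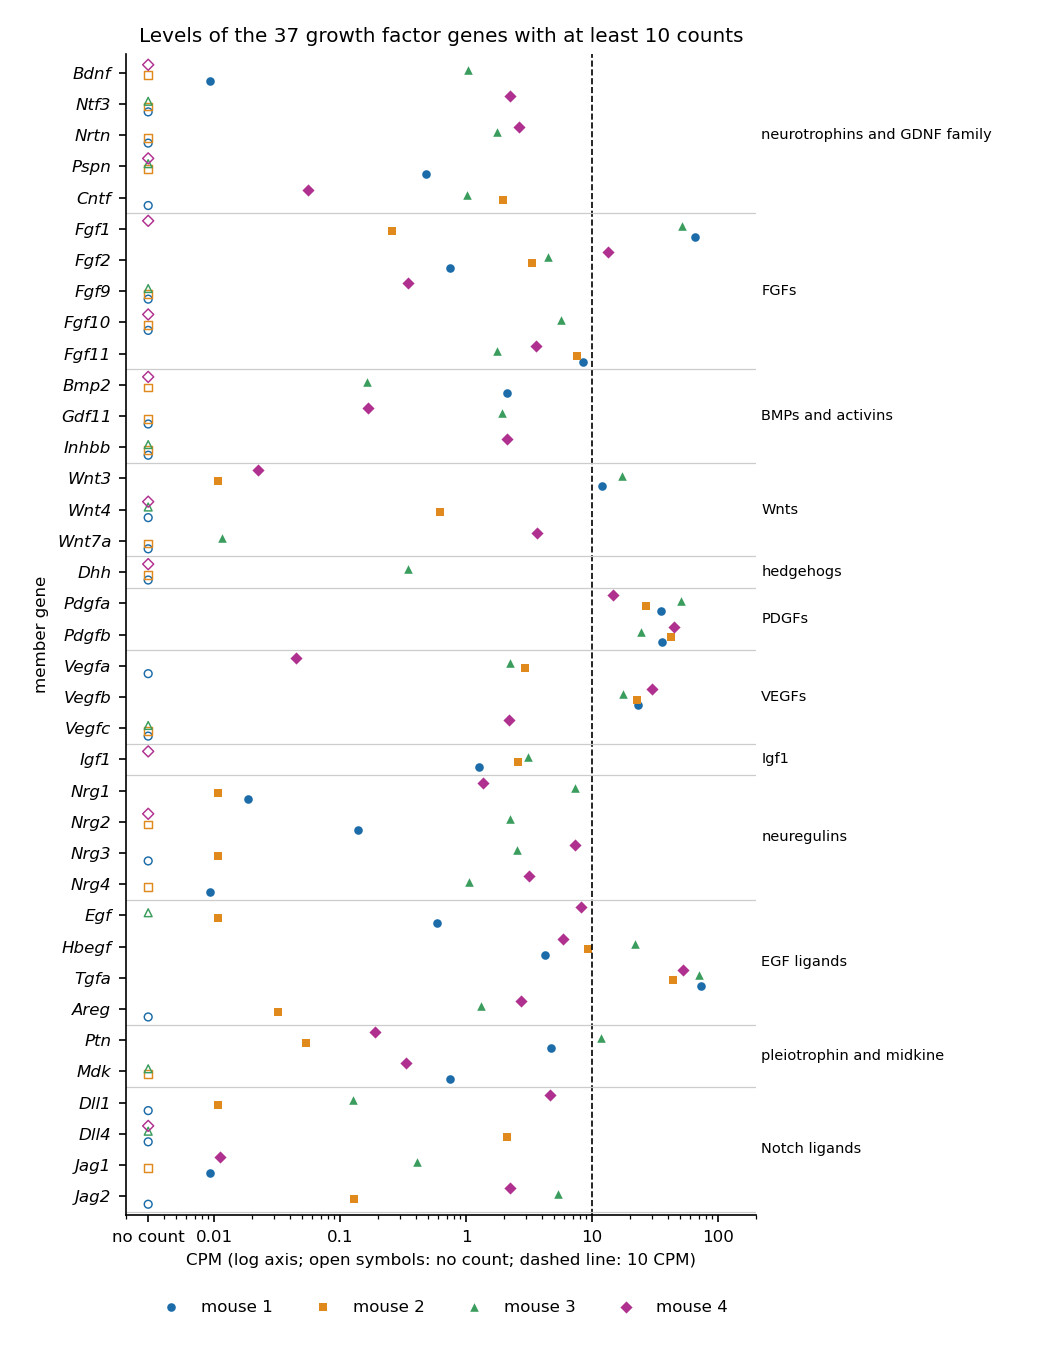
CPM (log axis) of the 37 members with at least 10 counts, grouped by family, with 1 symbol per mouse and open symbols at the left edge for a count of 0. Tgfa, Pdgfa, Pdgfb and Vegfb lie to the right of the dashed line at 10 CPM in all 4 mice, while most other members spread from no count to a few CPM.

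The 4 called ligands were present in every library. Tgfa encodes transforming growth factor alpha, a ligand of the EGF receptor. It had 73.5, 44.1, 70.1 and 52.5 CPM, a mean of 60.1 ± 14.1 (SD, n = 4). All 4 libraries lay above 10 CPM, and the log2 level relative to 10 CPM was 2.59 with a standard error of 0.14 (edgeR adjusted p = 7.42e-06). The gene (ENSMUSG00000029999.14) lies on the plus strand of chr6:86195223-86275719 in GRCm38, the assembly also called mm10.

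Vegfb encodes a member of the VEGF family that binds the receptor VEGFR1 and neuropilin 1. Its levels were 22.9, 22.9, 17.7 and 29.9 CPM, a mean of 23.3 ± 5.00 (SD, n = 4), with little spread between mice. Its log2 level relative to 10 CPM was 1.22 with a standard error of 0.22 (edgeR adjusted p = 0.00441). The gene (ENSMUSG00000024962.13) lies on the minus strand of chr19:6982473-6987651.

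Pdgfb and Pdgfa encode the B and A chains of PDGF, which pair into dimers that act on mural cells and on oligodendrocyte precursors. Pdgfb (ENSMUSG00000000489.7, chr15:79995874-80014977, minus strand) had 36.1, 42.7, 24.4 and 45.0 CPM, a mean of 37.0 ± 9.26 (SD, n = 4). Its log2 level relative to 10 CPM was 1.89 with a standard error of 0.18 (edgeR adjusted p = 0.000152). Pdgfa (ENSMUSG00000025856.15, chr5:138976014-138997370, minus strand) had 35.5, 27.0, 50.8 and 14.6 CPM, a mean of 32.0 ± 15.2 (SD, n = 4). Its log2 level was 1.68 with a standard error of 0.26 (edgeR adjusted p = 0.00204). Exons of Pdgfa and Tgfa share 813 and 118 bases with those of genes on the opposite strand, 6330403L08Rik and Gm43917, so part of their reads may be from these. The A chain was highest in mouse 3 and lowest in mouse 4, and the B chain highest in mouse 4 and lowest in mouse 3. The other PDGF genes, Pdgfc and Pdgfd, had no count in any library.

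These 4 genes held 62.3%, 81.6%, 52.6% and 68.2% of the summed CPM of all members. All 4 were also called in each of the 12 other settings tried, among them the fit without mice 1 and 2, the libraries with few transgene counts. Microglial markers were high in all 4 libraries of the series, a pattern that any gene found throughout shares. Markers of vessel-lining cells, for which VEGFs are known as signals, summed to 12.2 to 23.1 CPM over 5 endothelial markers. Most of this was Pecam1 (18.1, 12.1, 9.04 and 14.6 CPM), and Flt1 added 5.18 and 8.46 CPM in mice 3 and 4. Cldn5 and Ly6c1 had 3 and 8 counts in total, and Cdh5 had 0. The 4 mural cell markers summed to 0.0116 to 2.79 CPM, with Kcnj8 at 0 counts. The part of these cell types in the ligand levels was not tested.

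Levels of different genes can be ordered only per length of transcript. By TPM, which divides counts by the length of a gene's exons before scaling, Vegfb came first with 41.2, 40.8, 35.4 and 57.6, a mean of 43.7 ± 9.64 (SD, n = 4). Pdgfa followed with a mean of 31.1 ± 16.0 TPM, Tgfa with 27.9 ± 7.03 and Pdgfb with 26.6 ± 6.29 (SD, n = 4 each). Vegfb exceeded Pdgfa in 3 of 4 libraries and Tgfa exceeded Pdgfb in 2 of 4, so neighbours in this order did not separate beyond their spread.

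**Figure D2:**
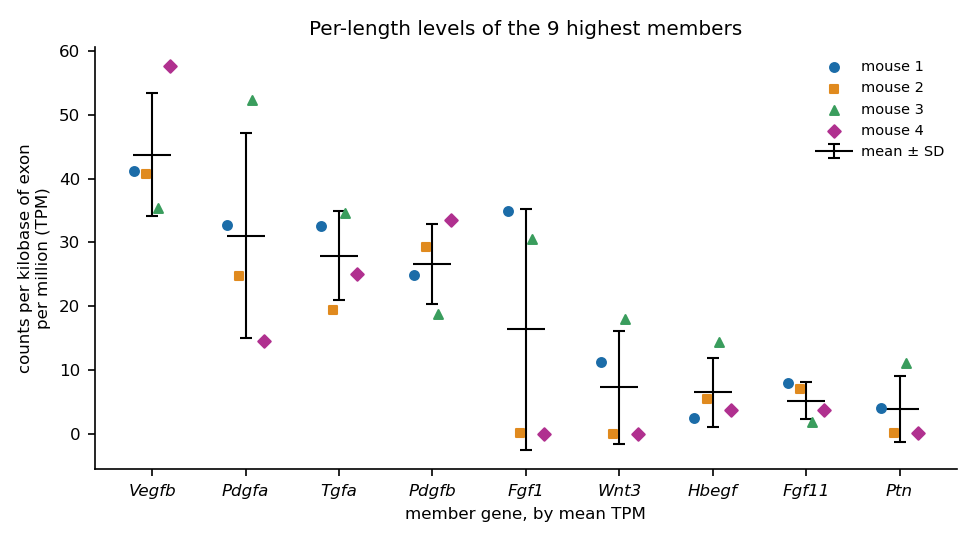
TPM (counts per kilobase of exon, scaled) of the 9 members with the highest mean, 1 symbol per mouse, with the mean and SD (n = 4). Vegfb has the highest mean at 43.7 TPM, and the points of Pdgfa, Tgfa and Pdgfb overlap, while Fgf1 and Wnt3 split into 2 libraries with and 2 libraries with almost no signal.

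The 250 bases before the RefSeq start (GRCm38.p6) are shown for Tgfa and Vegfb, the called members with a single start in the RefSeq promoter table, and for Wnt3, a Wnt gene found at 10 CPM or more in only 2 libraries (below). Capitals mark the GC box, GGGCGG on either strand (CCGCCC when read from the other strand). They were read 5′ to 3′ on the strand of the gene, from chr6:86194972-86195221 (plus strand), chr19:6987652-6987901 (minus strand) and chr11:103773925-103774174 (plus strand).
Tgfa: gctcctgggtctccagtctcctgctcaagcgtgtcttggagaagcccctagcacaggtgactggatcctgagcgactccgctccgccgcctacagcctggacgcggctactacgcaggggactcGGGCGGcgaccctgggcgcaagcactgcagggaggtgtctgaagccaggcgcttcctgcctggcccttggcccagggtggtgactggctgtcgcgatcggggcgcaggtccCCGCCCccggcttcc
Vegfb: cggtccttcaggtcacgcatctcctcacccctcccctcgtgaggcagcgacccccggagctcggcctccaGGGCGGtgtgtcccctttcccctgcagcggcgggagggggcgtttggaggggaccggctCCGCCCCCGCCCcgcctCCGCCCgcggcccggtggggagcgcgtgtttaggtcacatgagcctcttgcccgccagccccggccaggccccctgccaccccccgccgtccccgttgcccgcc
Wnt3: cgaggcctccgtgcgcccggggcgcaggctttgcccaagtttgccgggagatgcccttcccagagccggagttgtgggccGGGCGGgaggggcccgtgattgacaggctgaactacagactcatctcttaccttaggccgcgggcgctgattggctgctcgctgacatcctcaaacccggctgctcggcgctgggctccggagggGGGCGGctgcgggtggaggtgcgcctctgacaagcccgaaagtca
The GC box occurred 2 times in the Tgfa window, 4 times in that of Vegfb and 2 times in that of Wnt3, and 32.7% of 32851 mouse promoters of the same length hold at least 1. The windows held 69.2%, 76.4% and 68.0% G and C. Searches on both strands for the core of sites of the myeloid factor PU.1 (GAGGAA, in 23.3% of promoters), of SOX factors (ACAANG, 36.3%) and for a TATA box (TATAAA, 12.4%) found none in these windows. A match is a description of the letters and was not linked to the levels.

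Fgf1, the acidic FGF, which lacks a signal peptide and binds all FGF receptors, was the member with the widest spread. Its levels were 66.1, 0.257, 52.0 and 0 CPM, from 7142, 24, 4482 and 0 counts. The 95% Clopper-Pearson intervals were 64.6 to 67.7 CPM in mouse 1 and 50.4 to 53.5 CPM in mouse 3, and did not reach the 0.165 to 0.382 CPM of mouse 2 or the upper bound of the interval in mouse 4, 0.0411 CPM, where the limit of 3 counts is 0.0334 CPM. Mice 1 and 3 were thus high and mice 2 and 4 near or at the limit, so that the mean, 29.6 ± 34.5 CPM (SD, n = 4), described no library. The level was not called different from 10 CPM (log2 1.56, standard error 1.16, edgeR adjusted p = 0.314).

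Wnt3, a Wnt that signals through beta-catenin, followed the same libraries with 11.9, 0.0107, 17.2 and 0.0223 CPM, or 1290, 1, 1485 and 2 counts. Ptn encodes pleiotrophin, a heparin-binding factor of glia and neurons, and had 4.72, 0.0535, 11.8 and 0.189 CPM. Neither was called (edgeR adjusted p = 0.805 and 0.474). For all 3 genes both of the libraries of mice 1 and 3 lay above both of the others. All 7 oligodendrocyte markers also had their 2 highest levels in mice 1 and 3, with sums of 14666 and 18661 CPM there against 235 and 451 in mice 2 and 4. Mature oligodendrocyte genes were thus high where Fgf1, Wnt3 and Ptn were high, and their part in these levels was not tested.

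Fgf2, the basic FGF, ran differently, at 0.741, 3.34, 4.49 and 13.4 CPM, highest in mouse 4 (edgeR adjusted p = 0.434). It shares exonic bases with Nudt6 on the opposite strand, which had 15.5, 25.1, 11.7 and 34.6 CPM, and the libraries do not keep the strand, so Fgf2 is uncertain. Fgf11, one of the intracellular FGF-related proteins that bind sodium channels, was found in all libraries at 1.76 to 8.46 CPM. Fgf10, a ligand of epithelial growth, had counts only in mouse 3 (5.66 CPM), and Fgf9 only in mouse 4 (0.345 CPM). No count was found for Fgf3, Fgf8 and Fgf18.

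Hbegf encodes the heparin-binding EGF-like factor, a membrane-anchored ligand of the EGF receptor and ErbB4. It had counts in all libraries, with 4.21, 9.24, 21.7 and 5.83 CPM, and its level did not differ from 10 CPM by the test (edgeR adjusted p = 0.958). Only mouse 3 lay above 10 CPM. Egf and Areg (amphiregulin), ligands of the EGF receptor like Tgfa, had their highest levels in mouse 4, at 8.10 and 2.71 CPM. Egf had 0.593, 0.0107 and 0 CPM in mice 1, 2 and 3, and Areg had no count in mouse 1 and 0.0321 and 1.31 CPM in mice 2 and 3.

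The neuregulins, ligands of ErbB3 and ErbB4 that neurons use to signal to glia and muscle, were found almost entirely in mice 3 and 4. Their summed level over 4 genes was 0.167, 0.0214, 13.2 and 11.9 CPM. Nrg1 was highest in mouse 3 at 7.34 CPM and had 1.36 CPM in mouse 4, while Nrg3 had 2.55 and 7.33 CPM there. Nrg4 had 3.19 CPM in mouse 4 but shares exonic bases with Fbxo22 on the opposite strand, which had 44.5 to 75.7 CPM, so its reads are uncertain. Nrg2 had 2.24 CPM in mouse 3, 0.139 CPM in mouse 1 and no count in mice 2 and 4. Neuron markers had 6 of 7 with their 2 highest levels in mice 3 and 4, and their sums were 42.4, 83.3, 750 and 321 CPM. All 7 CSF-cN markers had the same pair of highest libraries. Whether neurons or CSF-cNs carried the neuregulin counts was not tested.

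**Figure D3:**
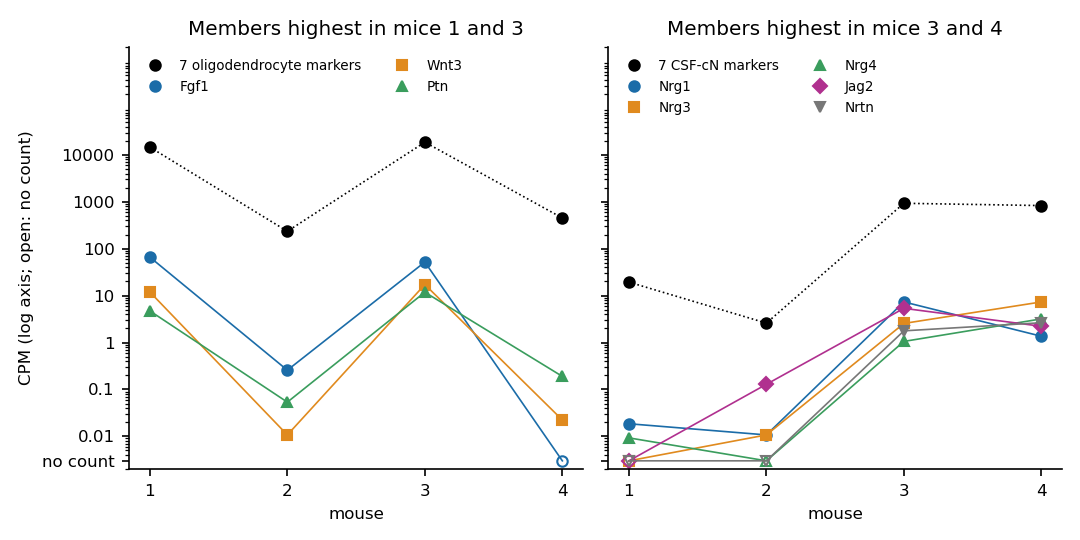
CPM (log axis) by mouse of Fgf1, Wnt3 and Ptn beside the sum of 7 oligodendrocyte markers (left), and of Nrg1, Nrg3, Nrg4, Jag2 and Nrtn beside the sum of 7 CSF-cN markers (right), genes chosen after their values were seen. Lines join the values of 1 gene or list over the unordered mice, and open symbols mark no count; the left genes are high in mice 1 and 3 and the right genes in mice 3 and 4.

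Neurotrophic factors were sparse. Bdnf, the brain-derived neurotrophic factor, had 1.04 CPM in mouse 3 and a single count in mouse 1, and Ntf3, neurotrophin 3, had 2.23 CPM in mouse 4 alone. Of the GDNF family, Nrtn (neurturin) had 1.77 and 2.64 CPM in mice 3 and 4 and no count in mice 1 and 2, Pspn (persephin) had 0.482 CPM in mouse 1 alone, and Gdnf and Artn had no count. Cntf, the ciliary neurotrophic factor of glia, had 0, 1.97, 1.01 and 0.0557 CPM. It shares exonic bases with Zfp91 on the same strand, a gene at 11.1 to 36.2 CPM, and is uncertain. No neurotrophic factor had more than 3 counts in all 4 libraries.

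The morphogens of neural tube patterning were mostly absent at this depth. Shh and Ihh had no count, and Dhh, desert hedgehog, had 0.348 CPM in mouse 3 alone and shares exonic bases with Rhebl1. Of the 9 BMP and activin genes, Bmp4, Bmp5, Bmp6, Gdf10 and Inhba had no count. Bmp2 reached 2.12 CPM in mouse 1, Gdf11 1.91 CPM in mouse 3 and Inhbb, an activin subunit, 2.09 CPM in mouse 4. Bmp2 also had 0.162 CPM in mouse 3 and Gdf11 0.167 CPM in mouse 4, and no member of this family had a count in mouse 2. Beside Wnt3, Wnt4 had 0.621 CPM in mouse 2 alone and Wnt7a had 3.67 CPM in mouse 4 and a single count in mouse 3, and Wnt5a and Wnt7b had no count. The 17 members without a count compare with 50.2% of all rows of the table without one.

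Among the other ligands, Vegfa, the main VEGF of vessel growth, had 0, 2.94, 2.24 and 0.0446 CPM. Vegfc, a lymphatic growth factor, had 2.21 CPM in mouse 4 alone. Igf1, a growth factor also made by microglia, had 1.28, 2.60, 3.12 and 0 CPM. No library of Vegfa, Vegfc or Igf1 reached 10 CPM, and each had a library without a count. Mdk (midkine), related to pleiotrophin, reached 0.741 CPM in mouse 1. Of the Notch ligands, Jag2 had 0, 0.128, 5.36 and 2.22 CPM. Dll1 had 4.60 CPM in mouse 4, Dll4 2.13 CPM in mouse 2 alone and Jag1 at most 0.406 CPM, while Dll3 had no count.

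Most members that were found were found in part of the libraries. Of the 55, 8 had more than 3 counts in all 4 libraries, 5 in 3, 12 in 2, 12 in 1 and 18 in none. Of the genes with at least 10 counts in the whole table, 62.6% had more than 3 counts in all 4 libraries, 10.4% in 3, 12.9% in 2 and 14.1% in 1. The median SD of log2(CPM + 1) between mice was 0.840 over the tested members and 0.575 over all tested genes. Among genes with a mean under 10 CPM, 29.5% had more than 3 counts in all 4 libraries and 27.7% in 1. Of the 31 tested members with such a mean, 3 did in all 4 libraries and 12 in 1. The count of members with more than 3 counts was 16, 15, 27 and 25 by mouse, and that of all genes was 14461, 14206, 16346 and 15368. The sequencing runs of a library gave like levels: for members with at least 100 counts the ratio of run 1 to run 2 was between 0.636 and 1.31 in every library.

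To describe the libraries without choosing a split, each tested gene was assigned to the pair of libraries with its 2 highest CPM. Mice 3 and 4 held 11 of the 37 members, or 29.7%, beside 18.9% of all tested genes. They were Nrtn, Fgf2, Gdf11, Wnt7a, Nrg1, Nrg3, Nrg4, Areg, Dll1, Jag1 and Jag2. Mice 1 and 3 held 8 members, 21.6% beside 18.1% of all genes (Bdnf, Fgf1, Bmp2, Wnt3, Pdgfa, Nrg2, Tgfa and Ptn). Another 9 members, 24.3% beside 9.6%, had counts in 1 library only and thus no second. Mice 2 and 4 held 1 member, Pdgfb, or 2.70%, where 18.1% of all genes had their highest pair, and mice 1 and 2 held 1, Fgf11, where 14.7% did. Mice 2 and 3 held 4 members (10.8% beside 10.9%) and mice 1 and 4 held 3 (8.11% beside 9.65%). Among genes with a mean under 10 CPM, a background added after the data were seen, mice 3 and 4 held 11 of 31 members, 35.5% beside 21.2%, and 9 members, 29.0% beside 18.9%, had counts in 1 library. In that background mice 1 and 3 held 5 members beside 14.7% of genes, mice 2 and 3 held 3 beside 11%, mice 1 and 4 held 2 beside 8.76%, mice 1 and 2 held 1 beside 10.7% and mice 2 and 4 held 0 beside 14.6%. With 1 group of 4 mice these shares are a description, with no test.

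**Figure D4:**
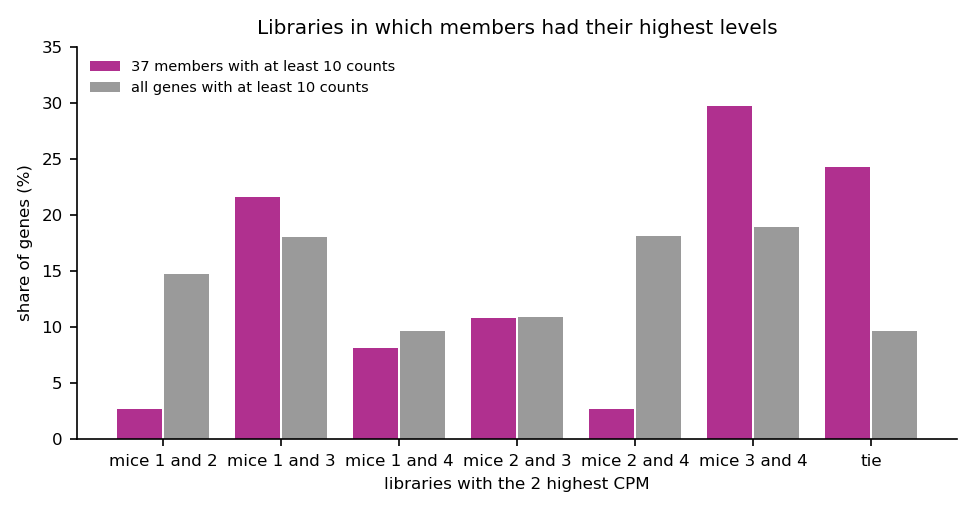
Share of the 37 tested members (coloured bars) and of all tested genes (grey bars) whose 2 highest CPM lie in each pair of libraries; "tie" holds genes with counts in 1 library only. Members are at 29.7% against 18.9% for mice 3 and 4, and at 2.70% against 18.1% for mice 2 and 4.

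Receptors of these ligands were examined by the same test. Of 68 receptor genes, 51 were tested. The test called 12 above 10 CPM, where 36.7% of all tested genes were called, and none below. At an unadjusted p under 0.05 there were 3 below. The limma-voom fit called 14 below and DESeq2 6, where they called 6164 and 2041 of all 18522 tested genes. Ncl (nucleolin, 209 ± 20.7 CPM, SD, n = 4), an abundant nucleolar protein that also binds midkine at the cell surface, was called. The shared signal chains Il6st (gp130, 158 ± 63.7) and Lifr (60.0 ± 22.1), which serve ciliary neurotrophic factor among many cytokines, were called, but Cntfr, the chain particular to that factor, had 0 to 0.846 CPM. Nrp1 (neuropilin 1, 92.5 ± 31.5) and Lrp1 (128 ± 58.8), which bind VEGFs and midkine among others, were called as well. Flt1, which encodes VEGFR1, had 0, 0.0214, 5.18 and 8.46 CPM and was not called.

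Receptors of BMPs and activins made up 5 of the 12 called genes. They were Bmpr2 (57.1 ± 33.5 CPM, SD, n = 4), Bmpr1a (28.7 ± 15.3), Acvr2b (25.0 ± 9.78), Acvr1 (24.7 ± 3.84) and Acvr2a (22.1 ± 14.4). The 9 ligands of this family among the members summed to at most 2.27 CPM in a library. Gdf9, a ligand of the family outside the members, had 8.08 to 15.9 CPM, highest in mouse 1, and was not called (edgeR adjusted p = 0.669). The call of Acvr2a was near the threshold (edgeR adjusted p = 0.0411) and was lost in 6 settings, with DESeq2 and without mouse 1, 2 or 3 among them. Bmpr1a lost its call without mouse 2, and Acvr2b without both mice 1 and 2. The others called were the Wnt co-receptor Lrp6 (22.5 ± 5.29) and the insulin receptor Insr (31.5 ± 13.2), and both lost the call without mice 1 and 2. Lrp6 also lost it with DESeq2.

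For PDGF and EGF ligands, few or no receptor counts were found. Pdgfra and Pdgfrb, the PDGF receptors, had no count in any library, while Pdgfa and Pdgfb had at least 10 CPM in all 4. Egfr, the receptor of Tgfa, had 0, 4, 0 and 3 counts, and Erbb3 had 0, 1, 0 and 2. Erbb4 had 1303, 1, 0 and 9 counts, or 12.1 CPM in mouse 1, and Erbb2 had 10 counts in mouse 3 only. Oligodendrocyte precursors and mural cells, which carry the PDGF receptors, had marker sums of 0.259 to 4.91 CPM and 0.0116 to 2.79 CPM, with Gpr17 and Kcnj8 at 0 counts. The part of these cells in the receptor counts was not tested.

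No FGF receptor was called. Fgfr2 had 61.6, 0.0428, 67.7 and 0.0223 CPM. Fgfrl1, a receptor without a kinase domain, had 29.6, 4.17, 49.1 and 4.78 CPM, and was named after its values were seen, like the other receptors of the list. Fgfr1 had its 2 highest levels in mice 1 and 3 as well, while Fgfr3 reached 0.858 CPM in mouse 3 with no count in mouse 1, and Fgfr4 had counts in mouse 1 only. The oligodendrocyte markers were high in mice 1 and 3 too, and their part was not tested. Smo, the signal transducer of hedgehog, had the highest mean of its list (12.3 ± 4.16 CPM, SD, n = 4), and Notch2 that of the Notch receptors (11.4 ± 5.52), neither called.

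**Figure D5:**
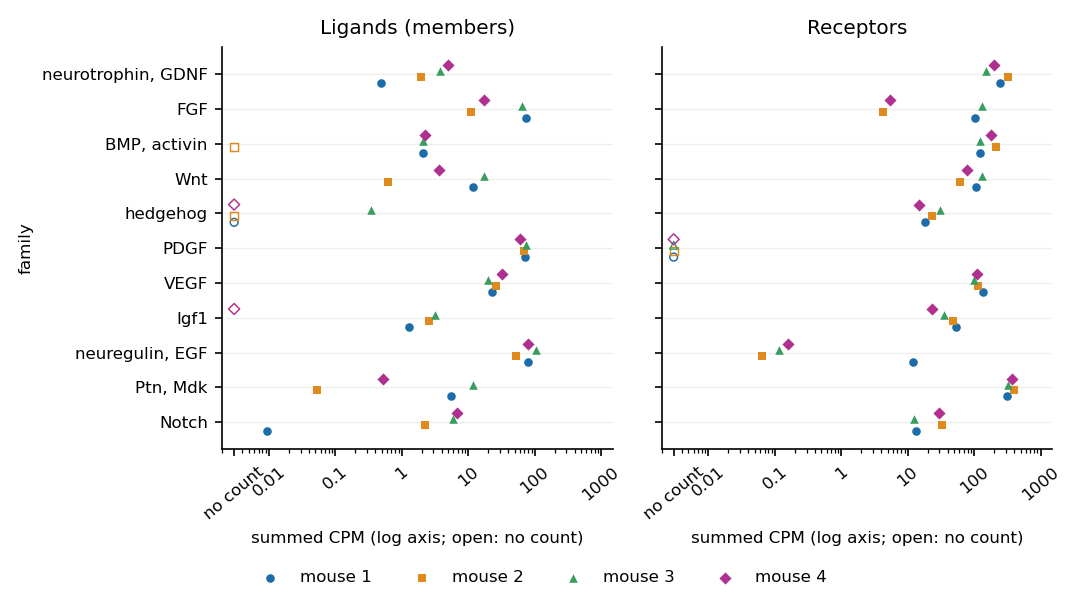
Summed CPM (log axis) of the member ligands of each family (left) and of the receptors listed for it (right), 1 symbol per mouse, open symbols for no count. The PDGF ligands lie at 59.6 to 75.2 CPM with no count for their receptors, while BMP and activin receptors lie at 121 to 215 CPM and the members of that family, which leave out Gdf9 (8.08 to 15.9 CPM), at no more than 2.27 CPM.

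Secreted inhibitors and pathway target genes were also listed, 39 in all, of which 23 were tested. The test called 6 above 10 CPM, where 36.7% of all tested genes were called, and none below. At an unadjusted p under 0.05 there was 1 below. The limma-voom fit called 11 below and DESeq2 1, where they called 6164 and 2041 of all 18522 tested genes. Among the inhibitors only Igfbp4, which binds insulin-like growth factors, was called (36.2 ± 7.87 CPM, SD, n = 4). No count was found for 8 of 18, among them the BMP inhibitors Nog and Grem1, beside 50.2% of all rows of the table. Targets of the receptor tyrosine kinase and ERK path were called in Dusp6 (578, 526, 447 and 629 CPM), Etv5 (101 ± 64.9, SD, n = 4) and Spry1 (30.6 ± 14.3). Of the same path, Spry4 and Etv4 had no count and Spry2 had 0 to 2.20 CPM and was not called. These genes also answer many other signals. Smad7, a target of TGF-beta and BMP signals, had 19.4 ± 6.63 CPM (edgeR adjusted p = 0.0436), and lost the call under 5 settings, without mouse 1, 2 or 4 among them. Id2, a BMP target, had 496, 71.9, 92.8 and 98.1 CPM, highest in mouse 1. Other BMP targets of the list were not called. Id1 had 0.0223 to 5.95 CPM, Id3 0.0111 to 2.02, Id4 0 to 8.81 and Smad6 0.0557 to 5.08. Gli1, the usual readout of hedgehog signals, was at 0 counts in all 4 libraries. Of the Wnt targets, Lef1 had no count and Axin2 had 0 to 1.16 CPM. Nkd1 had 32.3, 0.0428, 36.3 and 0.0111 CPM, and neither it nor Axin2 was called. Of the Notch targets, Hes5 and Heyl had no count and Hey2 had 2 counts, while Hes1 had 7.72 CPM in mouse 1 and 0.449 to 0.501 CPM in the others. Hey1 had 4.82 and 1.60 CPM in mice 1 and 3 and no count in mice 2 and 4.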

How the data were processed

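Spinal cord cells of 4 mice were sorted and sequenced as poly(A) RNA with the SMART-Seq v4 kit, 11 PCR cycles and the Nextera XT kit, per the labels' protocols. The authors deposited a table of whole-number counts, with 2 runs per mouse, and a table of log2 values, used only as an alternative. The submitters' processing notes name build mm10 and the tools STAR, RSEM, DESeq2, Trim Galore and FastQC; settings and annotation were not given in the sources used here. Strand is not kept and there are no molecular identifiers, so 12 of the 37 tested members that share exonic bases with another gene may hold reads of that gene, Pdgfa and Tgfa among them.

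Both runs of a mouse were summed, and a mouse was 1 replicate. CPM used edgeR's TMM factors. The level test was an intercept-only quasi-likelihood fit (edgeR 4.0.16, R 4.3.3) with an offset of 10 CPM, on genes with at least 10 counts. The F test was computed from the deviances, and the standard error is the size of the log2 estimate over the root of F. It was tested on simulated data. TPM used exonic lengths of GENCODE M21, matched to 27895 rows with 97.1% of the counts. RefSeq promoters (GRCm38.p6) matched 43 of the 55 members. Alternatives used DESeq2 1.42.0 and limma 3.58.1.

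All members are named, with values per mouse for those called above 10 CPM or reaching 10 CPM in a library. Of the receptor, inhibitor and target lists, genes called above are named, or the highest mean of a list with none called. Cntfr, Flt1, the PDGF, ErbB and other FGF receptors and Gdf9 were added after their values were seen. So were Nog, Grem1, Gli1, Lef1, Axin2, Nkd1, Spry2, Spry4, Etv4, Id1, Id3, Id4, Smad6 and the Hes and Hey genes. The members and lists were chosen with earlier results of these data known.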

Additional observations from a re-analysis of the deposited data

Results flagged for a closer look

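In 16 of the 37 tested members the highest library lay far from the other 3. The measure, taken on log2(CPM + 1), is the gap to the nearest other library as a share of the whole range. It was set against Dixon's 95% critical value for 4 samples. Chance alone flags about 1 in 20 groups of normally distributed values, a rate that does not hold for genes without a count in some libraries. The same measure flagged 20.0% of all tested genes and 34.5% of those with a mean under 10 CPM, beside 43.2% of the members. In no member was it the lowest library. The share is 1 for Pspn in mouse 1 (0.482 CPM), Wnt4 (0.621 CPM) and Dll4 (2.13 CPM) in mouse 2, Fgf10 (5.66 CPM) and Dhh (0.348 CPM) in mouse 3, and Ntf3 (2.23 CPM), Fgf9 (0.345 CPM), Inhbb (2.09 CPM) and Vegfc (2.21 CPM) in mouse 4. Each of these had no count in the other 3 libraries, which fixes the share at 1. In mouse 3 the share was 0.987 for Bdnf, 0.855 for Gdf11, 0.889 for Nrg2 and 0.967 for Jag1. In mouse 4 it was 0.993 for Wnt7a and 0.930 for Dll1, and in mouse 1 it was 0.868 for Bmp2.

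By library, mice 1 and 2 held 2 such members each and mice 3 and 4 held 6 each. The share of all genes flagged in each library is not given here, so this split is no result about the members. Genes with more than 3 counts were also more in mice 3 and 4 (16346 and 15368) than in mice 1 and 2 (14461 and 14206). Beside the members of mouse 3, the 5 fibroblast markers summed to 8.37, 0.107, 994 and 109 CPM. Nearly all of this was Dcn (1.41, 0.0963, 989 and 108 CPM), with Col1a1 and Col3a1 at 0 counts, Lum found only in mouse 4 and Col1a2 highest in mouse 1 (6.96 CPM). Beside those of mouse 4, the 6 ependymal markers summed to 0, 0.471, 10.6 and 59.3 CPM. The 6 astrocyte markers summed to 120, 145, 61.1 and 171 CPM, of which Slc1a3 was 115, 122, 52.1 and 155. In mouse 4 Aqp4 and Gja1 were at their highest, while Gfap, Slc1a2 and Aldh1l1 had no count there and Gfap was highest in mouse 2 (23.4 CPM). The part of these cells in the levels was not tested.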

How the results depend on the processing

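The 4 members above 10 CPM were called in all 12 other settings, with a highest adjusted p of 0.0304 for Pdgfa, 0.0076 for Pdgfb, 0.00053 for Tgfa and 0.0436 for Vegfb. Leaving out 1 mouse at a time kept 4 members above and gave 10 to 12 receptors and 5 to 6 inhibitors and targets above. These fits called 0 below in each list, but also 0 of all genes, so that says nothing of stability. Without both mice 1 and 2 the counts above were 4, 9 and 5. Counts below 10 CPM, 0 for each list in the main test, depended on the tool: members below were 4 by DESeq2, 26 by limma-voom, 1 with no filter on low counts and 25 in limma on the authors' log2 table. Receptors below were 6, 14, 3 and 14 in the same order, and inhibitors and targets 1, 11, 2 and 10. Of all genes these settings called 2041, 6164, 2482 and 6069 below, of 18522 tested or 21132 with no filter. The cause was not tested. The log2 level of Fgf1 turned to -2.59 with limma-voom and -2.49 on the authors' log2 table, that of Hbegf to -0.32 and -0.26, and ranged from -0.66 (without mouse 3) to 0.33 (without mouse 1) when 1 mouse was left out, with neither gene called. Mice 1 and 3 held 5 members when a mean of at least 1 CPM was required, and mice 2 and 4 held 2 when scaled by library totals. Requiring more than 3 counts in both libraries, a setting added after the data were seen, left 7 members for mice 1 and 3 and 9 for mice 3 and 4. No paired analysis was possible because the libraries form 1 group. With 1 library of 50 cells per mouse, transcripts present in few cells can be missed at any depth.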

Other observations

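Other genes of the same families were looked up after the data were seen, and some, such as Fgf12 and Fgf13 (below), do not encode secreted ligands. Of 58 such genes, 35 had no count, beside 50.2% of all rows of the table, and 15 were tested. Tgfb1 encodes transforming growth factor beta 1, a factor that microglia make and respond to. It was the only one of them called above 10 CPM, where 36.7% of all tested genes were called. It had 77.9, 97.5, 61.3 and 80.6 CPM, a mean of 79.3 ± 14.8 (SD, n = 4), and its log2 level relative to 10 CPM was 2.99 with a standard error of 0.11 (edgeR adjusted p = 1.45e-06). All 4 libraries lay well above 10 CPM.

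The intracellular FGF-related genes Fgf12 and Fgf13, whose proteins bind sodium channels in neurons, were high in mice 3 and 4. Fgf12 had 0.0185, 0.0107, 40.5 and 39.4 CPM and Fgf13 had 0.769, 13.5, 40.3 and 35.7 CPM. Fgf11, the member related to them, had its 2 highest levels in mice 1 and 2 instead. Igf2, an insulin-like growth factor of meninges and vessels, had 3.08, 0.0963, 29.5 and 6.61 CPM. Btc, a ligand of the EGF receptor, had 10.6 CPM in mouse 3, and Gdf15, a stress-induced factor, had 11.2 CPM there. Both were at or under 0.509 CPM in the other libraries. Gdf9, of the BMP family, had 8.08 to 15.9 CPM over the 4 libraries and was not called.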
